A study of Saccharomyces cerevisiae with 2 samples.

Results

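The second internal transcribed spacer (ITS2) lies between the 5.8S and 25S rRNA sequences of the 35S pre-rRNA, the long yeast transcript from which the 18S, 5.8S and 25S rRNAs are released. The spacer was taken as every nucleotide that the coverage data list under the feature ITS2-2, after a last entry that repeated the first nucleotide of the 25S rRNA was dropped. This left 232 of the 6858 nucleotides of the 35S pre-rRNA. The RefSeq annotation of assembly R64 likewise lists ITS2-2 (YNCL0022C) with a length of 232 nt, on chromosome XII. No chromosome coordinates are given because the coverage names no genome build. Nucleotides are numbered from 1 at the 5.8S end, and the spacer was divided at the C2 cleavage site, placed between nucleotides 138 and 139. This position was taken as given and was not read from the coverage. The 5.8S side thus has 138 nt and the 25S side 94 nt.

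Pol5 is an essential nucleolar protein of budding yeast. Pol5-HTP cells carried a C-terminal His-Tev-ProtA tag on Pol5, introduced at its own locus in the BY4741 strain, and WT cells were BY4741 of wild-type genotype. Growing cells of both kinds were irradiated at 254 nm, and RNA crosslinked to the tagged protein was recovered by CRAC (crosslinking and analysis of cDNA), in which the RNA is trimmed on the purified protein, converted to cDNA and sequenced. Each condition had 1 library, so no difference given here has an estimate of the spread between cultures. The title of the control carries the letters HTP, but its genotype label reads wild type, and it was used as the untagged control.

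In growing yeast, ITS2 is removed in steps. The spacer is still whole in the 27SB pre-rRNA, and the endonuclease Las1 cuts it at C2. The 5.8S side then remains on the 7S pre-rRNA, whose 3′ end is trimmed back to the end of the 5.8S rRNA (site E) by the exosome, a 3′-5′ exonuclease complex. The 25S side remains on the 26S pre-rRNA and is removed up to the start of the 25S rRNA (site C1) by 5′-3′ exonucleases including Rat1. Mature ribosomes contain no ITS2.

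The whole spacer is shown first, because the results refer to positions along it. The letters are those listed with the coverage, in the DNA alphabet and 5′ to 3′. Capitals mark the 39 nt, from 82 to 120, where Pol5-HTP coverage was at least 50% of its ITS2 maximum. The stretch on either side of C2 follows, from nucleotide 114 to 163, with the 25S side in capitals.
ITS2: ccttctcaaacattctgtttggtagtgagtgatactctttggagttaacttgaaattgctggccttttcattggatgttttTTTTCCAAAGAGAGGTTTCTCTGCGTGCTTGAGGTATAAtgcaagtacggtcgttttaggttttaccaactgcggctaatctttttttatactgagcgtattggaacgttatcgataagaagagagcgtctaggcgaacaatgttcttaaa
C2 region: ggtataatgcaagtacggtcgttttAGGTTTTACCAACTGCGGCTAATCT

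Values are hits per 1000000 mapped reads (normalized hits), as scaled by the authors, where a read gives a hit at each nucleotide it covers. A single WT read was worth 2.16 normalized hits and a single Pol5-HTP read 0.570, so that 463950 and 1755048 mapped reads lay behind the coverage. By these totals the WT coverage was the shallower, and 3 reads, taken as its detection floor, corresponded to 6.47 normalized hits. Of the hits along the whole 35S pre-rRNA, ITS2 took 7.60% for Pol5-HTP and 0.429% for WT. The totals of the class counts were 1092199 reads for WT and 1073688 for Pol5-HTP, and so did not show WT as the shallower library. Which totals match the sequenced libraries is not known. Scaling to the class totals would multiply the ratios of Pol5-HTP over WT at single nucleotides by 3.85, and the ratios with 10 normalized hits added by less. Intervals are 95% intervals for counting error only, since each condition had 1 library. They treat reads as independent and are too narrow where reads are not.

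Coverage of ITS2 was much higher in Pol5-HTP than in WT on both sides of C2, and in both libraries it was higher on the 5.8S side. On the 5.8S side the mean was 3804 normalized hits for Pol5-HTP against 185 for WT. On the 25S side it was 971 against 62.9. Every nucleotide of the spacer was covered in Pol5-HTP, by 198 to 15877 reads. In WT the reads at a nucleotide ranged from 0 to 158, and 27 of the 232 nucleotides, all on the 25S side, had 3 reads or fewer. The log2 ratio of Pol5-HTP over WT, with 10 normalized hits added to each mean, was 4.29 (interval 4.07 to 4.52) for the 5.8S side and 3.75 (3.48 to 4.02) for the 25S side. These intervals rest on the reads at the highest nucleotide of each side.

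The log2 ratio was thus 0.54 higher on the 5.8S side (interval 0.19 to 0.90). The size of this difference depended on how a side was summarized. It was 0.27 without the 30 nt next to each mature rRNA and 1.32 with medians in place of means. No interval was computed for either value, so it is not known whether 0.27 exceeds counting error. Within a library the comparison of sides does not depend on scaling. Mean coverage of the 5.8S side was 3.92 times that of the 25S side in Pol5-HTP and 2.94 times in WT. The 5.8S side makes up 59.5% of the spacer and held 85.2% of its hits in Pol5-HTP and 81.2% in WT. Both libraries therefore favoured the same side, and Pol5-HTP somewhat more so.

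**Figure D1:**
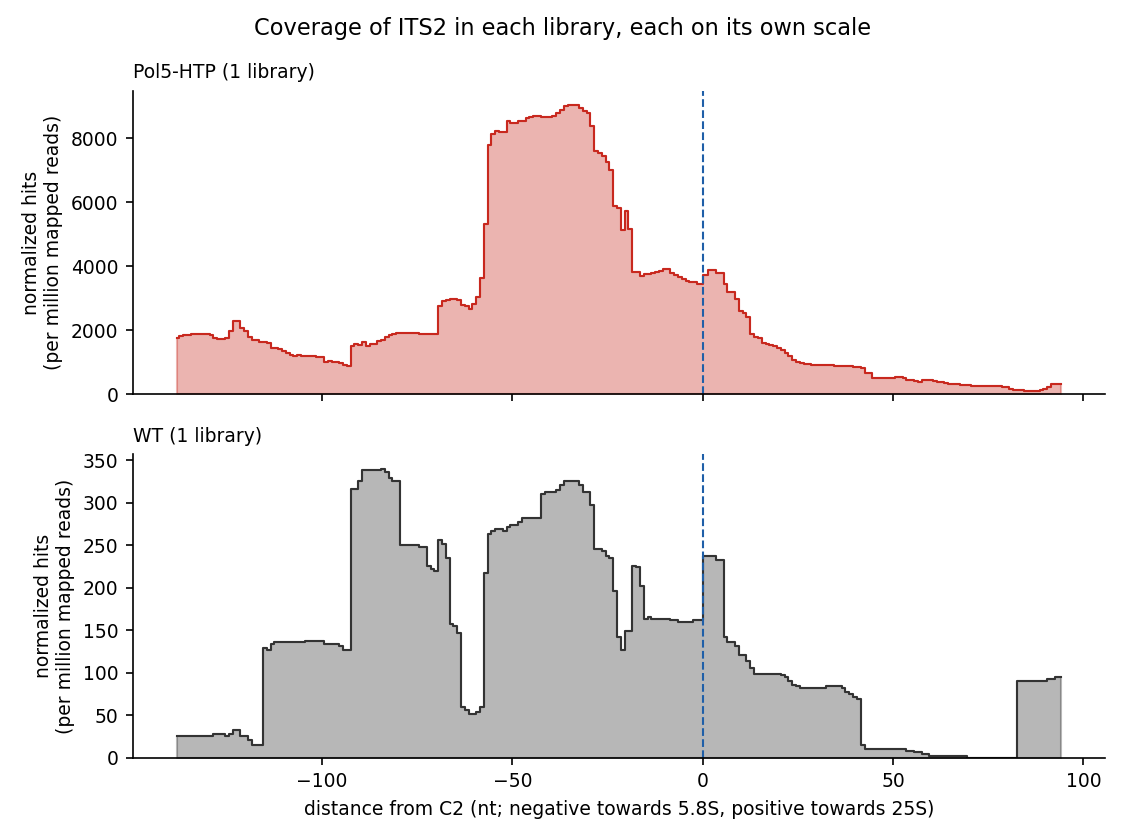
Coverage of ITS2 in normalized hits (vertical axes, a separate scale for each library) against the distance from C2 in nt, with C2 as a dashed line. Pol5-HTP reached 9046 normalized hits 33 nt before C2, whereas WT did not exceed 341 and had several blocks of similar height.

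Of the 232 nucleotides, 224 had at least 2 times the WT value after 10 normalized hits were added to both, against 36% of all nucleotides of the 35S pre-rRNA. At least 4 times WT was reached by 220 nucleotides, against 25.6% of the transcript. Nucleotides at or below 1/2 of WT made up 24.5% of the transcript but numbered 0 in ITS2. All 138 nucleotides of the 5.8S side passed the 2-fold limit, as did 86 of the 94 on the 25S side. ITS1 and the 5′ ETS had similar shares, with 359 of 361 and 671 of 700 nucleotides at or above 2 times WT. Enrichment at this limit was therefore common to ITS2, ITS1 and the 5′ ETS. Enrichment was not seen at the start of the 3′ ETS, the spacer past the 25S rRNA, but few reads lay there. Over its first 10 nt, Pol5-HTP had a mean of 2.11 normalized hits against 7.33 in WT. These means were close to the values of 3 reads, 1.71 and 6.47. Most of the hits were at the first nucleotide, with 36 reads in Pol5-HTP and 31 in WT. The 3′ ETS is therefore a weak contrast to ITS2. The median ratio over the nucleotides of ITS2, with 10 normalized hits added, was 21.8. The spacers were not ranked by it, because 256 of the 361 nucleotides of ITS1 had 3 WT reads or fewer and their ratios depend on the value added. In the adjoining mature 5.8S rRNA the limit was passed by 3 of 158 nucleotides, and the median ratio there was 0.834.

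The 8 ITS2 nucleotides below the limit formed a single stretch near the 25S rRNA, from 221 to 228, with the sequence AATGTTCT. WT had 42 reads at each of them. Pol5-HTP had between 198 and 314 reads there, including its lowest value in the spacer. The mean over the stretch was 129 normalized hits for Pol5-HTP against 90.5 for WT. At nucleotide 223, with 198 reads against 42, the ratio was 1.25 (exact Clopper-Pearson interval 0.890 to 1.78), which counting error alone does not distinguish from equal coverage. This depends on the authors' scale. All 232 nucleotides passed the limit when class-count totals or the 18S rRNA median set the scale.

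Directly 5′ of this stretch lay the only nucleotides of ITS2 without a WT read. They ran from 208 to 220, and are shown because they mark where the WT library held nothing to compare with.
WT gap: CGTCTAGGCGAAC
Pol5-HTP had 255 to 512 reads at these 13 nucleotides, with a mean of 237 normalized hits. This was 36.6 times the floor of 3 WT reads per nucleotide. For counting error it is no bound, since the upper limit for a nucleotide without WT reads was 7.95 normalized hits, above the floor. In WT, coverage then rose from 0 to 42 reads in a single step at nucleotide 221 and continued into the 25S rRNA.

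The Pol5-HTP summit lay on the 5.8S side at nucleotide 106, a G, 33 nt from C2. It had 15877 reads, or 9046 normalized hits, against 151 reads, or 325 normalized hits, in WT. The ratio was 27.8 (23.7 to 32.8). WT was close to its own ITS2 maximum at this nucleotide, with 95.6% of it. WT coverage was thus also high at the Pol5-HTP summit, although the WT maximum lay elsewhere.

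The 39 nt printed in capitals accounted for 50.5% of the ITS2 hits of Pol5-HTP but 33.3% of those of WT. Their mean was 7981 normalized hits for Pol5-HTP against 268 for WT. Their base composition was close to that of the spacer, with 35.9% T against 37.1% and 41.0% G or C against 38.8%. This stretch was defined by Pol5-HTP coverage, so its larger Pol5-HTP share is a description. Without any threshold, the 50% point of the cumulated hits fell at nucleotide 101 in Pol5-HTP and 95 in WT. The central 50% of the hits lay between nucleotides 83 and 122 in Pol5-HTP and between 59 and 127 in WT, and were thus spread more widely in WT.

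The WT maximum was at nucleotide 55, with 158 reads, or 341 normalized hits, and coverage stayed at or above 50% of it from nucleotide 47 to 72. Pol5-HTP had 2982 reads, or 1699 normalized hits, at nucleotide 55, and the ratio was 4.99 (4.25 to 5.89). The lowest Pol5-HTP coverage on the 5.8S side was just before this block, at nucleotide 46, with 1570 reads against 59 in WT. Both libraries rose at the next nucleotide. Across the 232 nucleotides the profiles had a Pearson r of 0.69 and a Spearman rho of 0.73. Neighbouring nucleotides share reads and are not independent, so these values only describe the likeness. They were 0.54 and 0.47 on the 5.8S side alone and 0.825 and 0.669 on the 25S side alone.

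On the common log scale, Pol5-HTP lay above WT throughout the spacer. The curves approached each other near nucleotide 55 and at the 25S end.

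**Figure D2:**
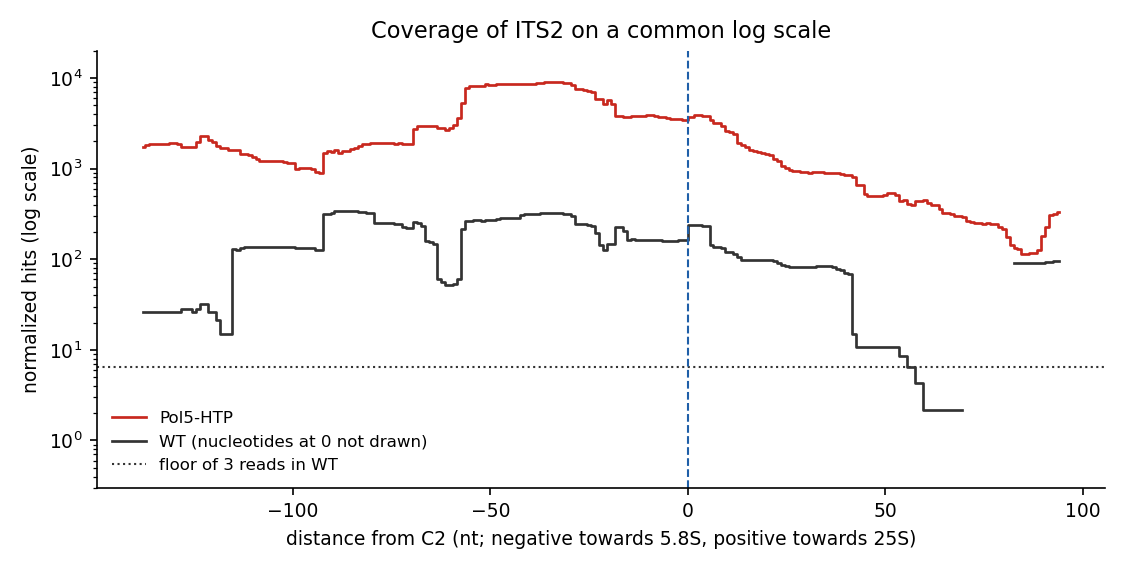
Normalized hits on a log axis against the distance from C2 in nt. The dotted line is the WT floor of 3 reads (6.47 normalized hits), and the 13 nucleotides without WT reads are not drawn; the curves come closest at nucleotide 223, 85 nt past C2.

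Windows of 20 nt counted outwards from C2 showed where the ratio varied. The highest levels of Pol5-HTP were in the windows from nucleotide 79 to 98 and from 99 to 118, with means of 7500 and 7993 normalized hits against 243 and 274 in WT. Their log2 ratios were 4.89 and 4.82 with overlapping intervals. The window before C2, from 119 to 138, had 3892 normalized hits against 169, and the window after it, from 139 to 158, had 2630 against 144. Their log2 ratios of 4.44 (4.17 to 4.72) and 4.10 (3.83 to 4.37) also had overlapping intervals. Reads that cross C2 count in both windows, and no interval was computed for the difference between them. The overlap therefore does not show that the windows next to C2 were equal.

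The highest log2 ratio of the 5.8S side, 5.69 (4.96 to 6.42), was in the window at the 5.8S end, from nucleotide 1 to 18. Its Pol5-HTP mean was 1899 normalized hits, whereas WT had 27.1, from 12 to 15 reads. For WT this was the lowest window mean of the 5.8S side, whereas for Pol5-HTP it was neither the highest nor the lowest. Among nucleotides with at least 10 WT reads the highest ratio was just past this window, at nucleotide 20, with 3142 reads against 10 (83.1, interval 45.1 to 173). The lowest log2 ratio of the 5.8S side, 2.42 (2.19 to 2.65), was from nucleotide 39 to 58, where WT had its maximum. On the 25S side the log2 ratio was 3.41 from nucleotide 159 to 178 and 4.61 from 179 to 198, with intervals of 2.98 to 3.83 and 4.10 to 5.11. From 199 to 218 WT had at most 1 read at any nucleotide, and the Pol5-HTP mean of 295 normalized hits was 45.6 times the WT floor of 3 reads per nucleotide. The log2 ratio there was 4.80, with a wide interval of 1.97 to 7.62, and depends on the value added. The last window, from 219 to 232, had the lowest log2 ratio of the spacer, 1.11 (0.67 to 1.55). The ratio over WT did not decline steadily with distance from C2.

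**Figure D3:**
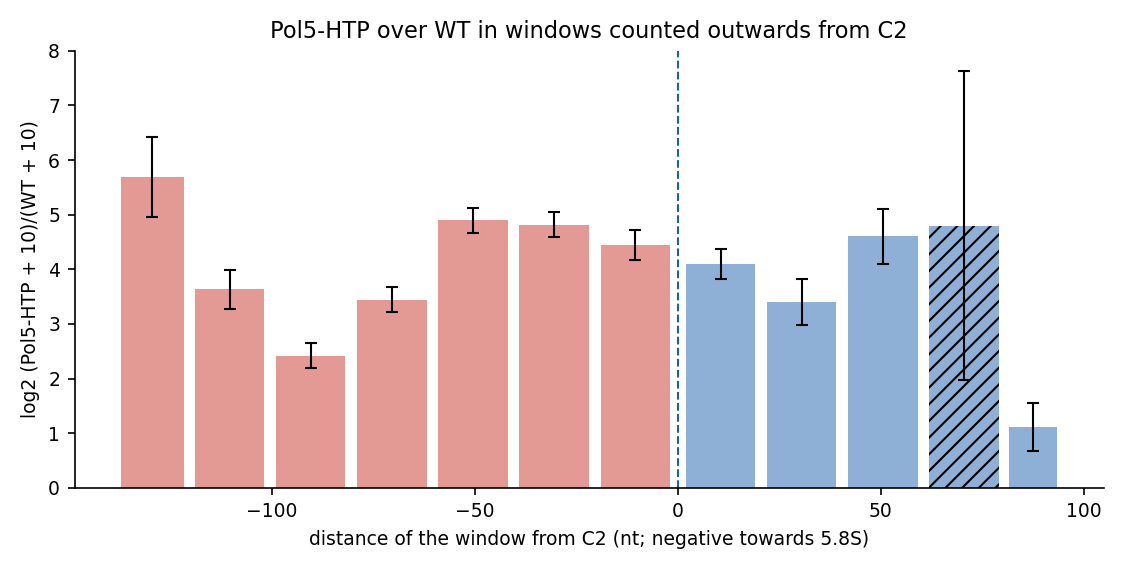
Log2 ratio of Pol5-HTP over WT with 10 normalized hits added (vertical axis) in windows of 20 nt (18 and 14 nt at the ends) against their distance from C2, red for the 5.8S side and blue for the 25S side. Bars give 95% counting intervals from the reads at the highest nucleotide of the window; the hatched window had at most 1 WT read at any nucleotide, so its ratio depends on the value added and is no bound.

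At C2 itself coverage was continuous in Pol5-HTP. There were 6075 reads at nucleotide 138 and 6561 at nucleotide 139, or 3461 and 3738 normalized hits, which is 38.3% and 41.3% of the ITS2 maximum. In WT the same nucleotides had 75 and 110 reads, or 162 and 237 normalized hits. Coverage thus increased across C2 in both libraries, 1.08 times in Pol5-HTP and 1.47 times in WT. The ratio over WT was 21.4 (17.1 to 27.3) before C2 and 15.8 (13.1 to 19.2) after it. At most 6075 reads in Pol5-HTP and 75 in WT can have crossed the cleavage site, and the coverage does not tell how many did. At least 486 reads in Pol5-HTP and 35 in WT began at nucleotide 139, the first past C2.

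The highest nucleotides of the 25S side were at its start. In Pol5-HTP the highest was nucleotide 141, with 6845 reads, or 3900 normalized hits, against 110 reads, or 237, in WT. In WT, nucleotides 139, 140 and 141 shared the maximum of 110 reads. From there Pol5-HTP fell below 50% of its value at nucleotide 139 after 14 nt, below 25% after 29 nt and below 10% after 64 nt. WT fell below 50% after 12 nt but below both 25% and 10% after 42 nt, where coverage dropped from 32 to 7 reads in 1 step. The decline was gradual in Pol5-HTP and in blocks in WT, which had at most 110 reads at a nucleotide here against 6845.

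Around its summit the Pol5-HTP profile was asymmetric. Towards the 5.8S rRNA coverage fell below 75% of the summit at 24 nt and below 50% at 25 nt, so that this edge was steep. Towards C2 it fell below 75% at 10 nt, below 50% at 15 nt and below 25% only at 45 nt, past the cleavage site. It first fell below 10% at 60 nt on the 5′ side, where only nucleotide 46 was below, and at 63 nt on the 3′ side. The ends differed, with 19.3% of the summit at nucleotide 1 and 3.65% at nucleotide 232. Changes in reads between neighbouring nucleotides give the difference between the reads that begin and end at each step. The 2 largest rises in Pol5-HTP were from 9333 to 13704 reads between nucleotides 82 and 83 and from 6392 to 9333 between 81 and 82. The third was from 3303 to 4852 between 69 and 70. The largest falls were from 9072 to 6688 reads between nucleotides 120 and 121, from 12294 to 10326 between 115 and 116, and from 14742 to 13360 between 110 and 111. The largest rise, of 4371 reads, thus exceeded the largest fall, of 2384 reads.

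In WT the largest rises were from 59 to 147 reads between nucleotides 46 and 47, from 28 to 101 between 81 and 82, and from 7 to 60 between 23 and 24. The largest falls were from 108 to 66 reads between nucleotides 143 and 144, from 68 to 28 between 75 and 76, and from 109 to 73 between 72 and 73. The rise at nucleotide 82 was among the largest of both libraries. At the first of the WT rises Pol5-HTP also increased, by 67.8%, from 1570 to 2635 reads. At the rise at nucleotide 24 it changed by 0.105%. Neighbouring nucleotides had equal coverage at 128 of the 231 steps in WT and at 1 in Pol5-HTP. The WT profile was accordingly made of flat blocks. WT had 0 to 158 reads at a nucleotide of ITS2, against 198 to 15877 in Pol5-HTP. Ties are more frequent at low depth, so a difference in shape cannot be told apart from the difference in depth.

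**Figure D4:**
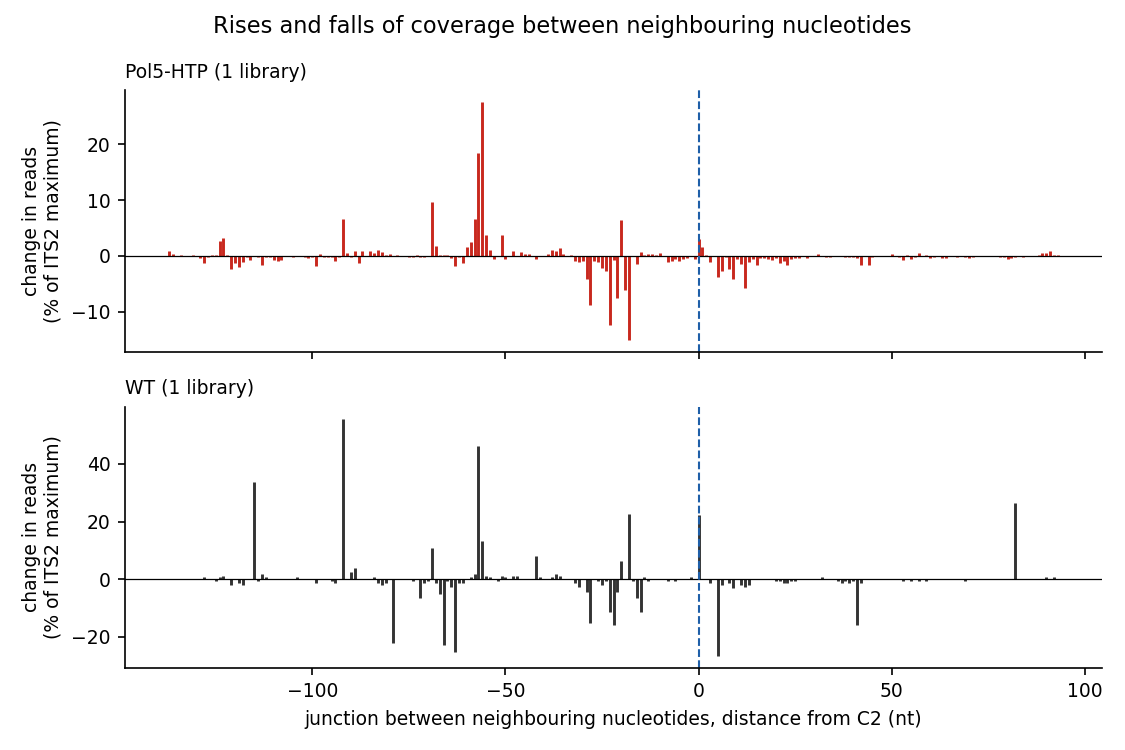
Change in reads from each nucleotide to the next, as a percent of the ITS2 maximum of the library (vertical axes, scaled separately), against the distance from C2 in nt. The largest Pol5-HTP rise was 27.5% of the maximum and the largest WT rise 55.7%.

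The steep 5′ edge of the Pol5-HTP maximum lay in the longest run of T in the 35S pre-rRNA, 8 nt from nucleotide 78 to 85. Runs of at least 7 T (TTTTTTT), searched on the RNA strand only, occurred 4 times in the 35S pre-rRNA, and 2 of them were in ITS2. Of all overlapping windows of the length of ITS2 along the transcript, 11.5% held such a run. These include windows that overlap ITS2, and the share holding 2 runs was not counted. The runs of ITS2 are shown in capitals with 15 nt on each side, because coverage behaved differently at them.
First T run: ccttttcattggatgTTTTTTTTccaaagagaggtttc
Second T run: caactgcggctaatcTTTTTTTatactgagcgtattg
At the first run the mean of the next 10 nt was 3.16 times that of the preceding 10 nt in Pol5-HTP, 8495 against 2687 normalized hits, and 1.57 times in WT. The second run, from nucleotide 163 to 169 on the 25S side, had 890 normalized hits after it and 1436 before it in Pol5-HTP, and 79.3 and 96.3 in WT. Coverage thus rose over the first run and was lower after the second in both libraries. Averaged by base, Pol5-HTP coverage ranged only from 2316 normalized hits at A to 2872 at G, with 2711 at T.

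At the 5.8S boundary (site E) the libraries differed most clearly in shape. In Pol5-HTP coverage passed from 3176 reads at the last nucleotide of the 5.8S rRNA to 3071 at the first of ITS2. In WT it passed from 84 to 12 reads. Over 10 nt on each side, the mean fell from 2677 to 1858 normalized hits for Pol5-HTP, or 1.44-fold, and from 3910 to 25.9 for WT, or 151-fold. Pol5-HTP thus had similar coverage on both sides of site E, while WT coverage nearly ended there. At nucleotide 1 the ratio over WT was 67.7 (38.7 to 131). At most 3071 reads in Pol5-HTP and 12 in WT can have crossed the boundary.

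At the 25S boundary (site C1) coverage rose from the spacer into the mature rRNA in both. Pol5-HTP had 580 reads at the last nucleotide of ITS2 and 594 at the first of the 25S rRNA, and WT had 44 and 73. Over 10 nt on each side the mean rose 2.22 times in Pol5-HTP, from 195 to 434 normalized hits, and 6.52 times in WT, from 91.8 to 599. The ratio over WT at nucleotide 232 was 3.48 (2.56 to 4.85), below that at nucleotide 1. Within Pol5-HTP, coverage was lower at the 25S end of the spacer, with 580 reads, than at its 5.8S end, with 3071.

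Changes over 10 nt were also steeper in WT than in Pol5-HTP at 3 of the other 4 boundaries of mature rRNA. From the 18S rRNA into ITS1 (site D) the mean fell from 31.1 to 15.8 normalized hits for Pol5-HTP and from 90.1 to 1.08 for WT, the last being under the WT floor of 3 reads. From the 5′ ETS into the 18S rRNA (site A1) it rose from 63.3 to 196 for Pol5-HTP and from 1.72, again under the floor, to 125 for WT. From ITS1 into the 5.8S rRNA it rose 2.91 times in Pol5-HTP and 15.7 times in WT. At the 3′ end of the 25S rRNA, in contrast, it fell from 242 to 2.11 for Pol5-HTP and from 858 to 7.33 for WT, 115-fold and 117-fold. Both means past this end were close to the values of 3 reads, 1.71 and 6.47 normalized hits. The size of these folds is therefore limited by depth. Gentler changes in Pol5-HTP than in WT were therefore seen at sites E and C1 and at other spacer boundaries as well, but not at the 3′ end of the 25S rRNA.

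**Figure D5:**
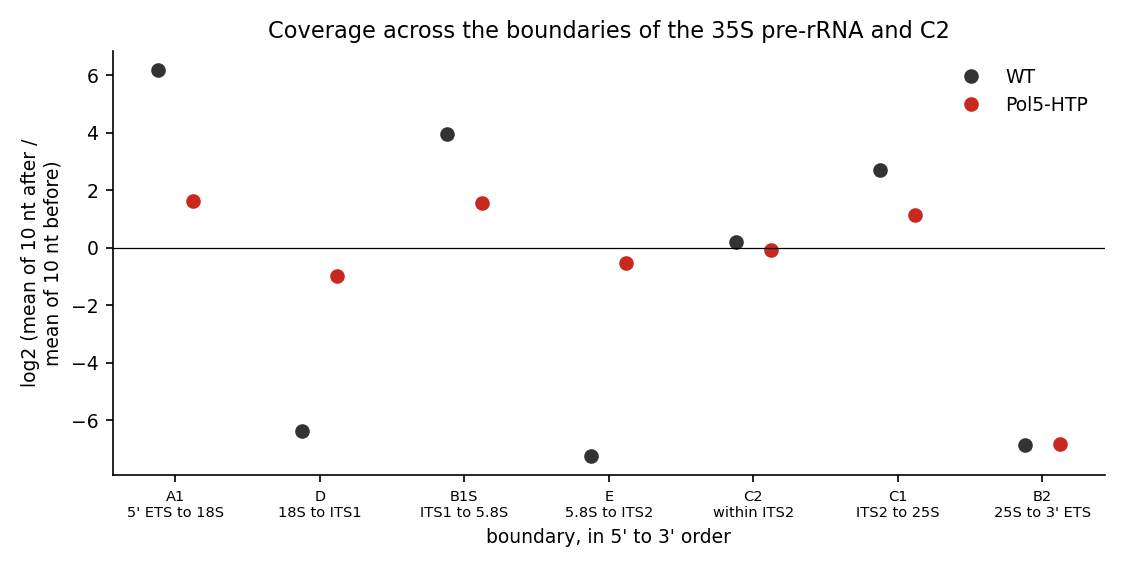
Log2 of the mean coverage of the 10 nt after each boundary over that of the 10 nt before it (vertical axis) in WT and Pol5-HTP, 1 library each, for the boundaries of the mature rRNAs and for C2 in 5′ to 3′ order. At C2 both libraries lie near 0, at site E only Pol5-HTP does, and at the 3′ end of the 25S rRNA both lie near the same low value. At A1 and D 1 of the WT means is under the floor of 3 reads, so these WT values are no bounds. Past the 3′ end of the 25S rRNA the means of both libraries are close to 3 reads.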

How the data were processed

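RNA from 1 WT and 1 Pol5-HTP library was sequenced by the authors, who removed barcodes, collapsed identical sequences, trimmed with Flexbar, mapped the reads with Bowtie 2 and counted RNA classes with pyCRAC. The submitters' processing notes name Bowtie2 version 2.3.4.2. The coverage signal, deposited as hits per 1000000 mapped reads, covers each nucleotide of the RDN37-2 copy of the rDNA. The deposited counts give reads in 7 RNA classes, without normalization, and were used only for their totals. How reads matching both annotated rDNA copies were placed, and the genome build, are not given in the sources used here.

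A nucleotide listed a second time at a feature boundary was kept once. Read totals were recovered from the smallest step between values. With them, 100% of the values were whole numbers of reads within 0.01 reads. Ratios of region means carried 10 normalized hits on each side, and ratios at single nucleotides carried none. Their intervals were exact Clopper-Pearson intervals of the reads. Intervals of region ratios used a normal approximation on the reads at the highest nucleotide of the region. With 1 library per condition no test was run and no p-value was computed. Scripts used Python 3.11.15, numpy 2.4.6, pandas 2.3.3, scipy 1.17.1 and matplotlib 3.10.9. The functions for read totals and log2 ratios were tested on simulated data. Of 40 read totals, 40 were recovered, and the largest error of a planted log2 ratio over ITS2 was 0.018. Simulated nucleotides were independent, ITS2 was given extra coverage, and nothing was added to the ratios. The error in the real data may thus be larger, and the intervals were not tested.

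The nucleotides named were the highest of each side in each library with the surrounding stretch at or above 50% of it, the lowest Pol5-HTP nucleotides, those at C2 and the boundaries, the highest and lowest ratios, windows of 20 nt counted from C2, and the 3 largest rises and falls. T runs, the WT gap and the stretch near equal coverage were named after their values were seen. The spacer, its division at C2 and these rules were chosen with earlier results of these data known. Alternatives changed the scaling, the value added, the edges of the sides, the mean or median, the fold limit and smoothing. Flanking boundaries were compared over 10 nt on each side.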

Additional observations from a re-analysis of the deposited data

How the results depend on the processing

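Pol5-HTP remained above WT on both sides of ITS2, and the log2 ratio higher on the 5.8S side, under all 8 alternatives run. The changes of scale bear little on the order of the sides, because a common factor cancels apart from the value added. For the 5.8S side and the 25S side, the log2 ratios became 6.14 and 5.44 when class-count totals set the scale, 5.07 and 4.52 when the 18S rRNA median did, 3.78 and 2.72 with 100 normalized hits added, and 3.84 and 2.52 with medians. The difference between the sides was 1.06 with 100 normalized hits added and 1.32 with medians. By share of nucleotides, with 10 normalized hits added, the order of the sides depended on the limit. At least 4 times WT was reached by 100% of the 5.8S side and 87.2% of the 25S side. At least 10 times WT was reached by 68.8% and 79.8%. The other log2 values lay within the counting intervals, with differences between the sides from 0.27 to 0.73. The count of ITS2 nucleotides at least 2 times WT ranged from 211, with nothing added and the 13 nucleotides without WT reads left out, to 232. No paired analysis was possible because there was 1 library of each kind. Depth limited the ratios at 27 nucleotides of the 25S side, where WT had 3 reads or fewer.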
